A study of Homo sapiens with 6 samples.

Results

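KHOS osteosarcoma cells were profiled untransfected and, on a separate array, after transfection with a nonspecific siRNA. This double-stranded RNA has no intended target and served as the control for CDK11 knockdown. The contrast was the log2 signal on the KHOS nonspecific siRNA array minus that on the untransfected KHOS array, which are 2 of the 6 arrays of the series. Probe sets were used when their highest signal on the 6 arrays was above 100, or 6.64 on the log2 scale, and 16397 of 54675 passed. Of these, 14441 named 1 gene, and the brightest probe set of each gene gave 8878 genes, 8005 of them above the limit on at least 1 of the 2 KHOS arrays compared.

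The study used Affymetrix U133 Plus 2.0 arrays to follow gene expression after CDK11 knockdown in KHOS and U-2OS, both established human osteosarcoma lines. Each line had 1 array of untransfected cells, 1 of cells given 40 nM nonspecific siRNA and 1 of cells given 40 nM CDK11 siRNA. RNA of 3 flasks was pooled for each array, so no spread between cultures was left within a line. No agent or allele other than the siRNA and the Lipofectamine RNAiMax reagent is given for any group. The methods put RNA collection 48 hours after CDK11 siRNA transfection and give no separate time for the nonspecific siRNA. The labels give no transfection for the untransfected cells, and whether these received the reagent alone is not stated in the sources used here, so effects of reagent and siRNA cannot be told apart. With 1 array on each side, the differences in KHOS are descriptions of these 2 pooled RNAs, without an error or a p-value.

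Cells recognise double-stranded RNA in the cytoplasm through sensors such as RIG-I and MDA5, which signal through MAVS to transcription factors of the IRF family. These switch on genes of type I and type III interferons, which are secreted and act on cell-surface receptors. The receptors activate a transcription factor complex containing IRF9, which binds the interferon-stimulated response element (ISRE) in promoters of genes that block viral RNA, proteins and entry.

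Promoters of 7 genes with large differences or central roles are shown because the response in KHOS centred on genes of this kind. Each sequence is the 150 bases just before the gene's RefSeq start in GRCh38.p14, read along the gene's strand, and capitals mark the core of the ISRE, which was searched on both strands as 2 copies of GAAA with any 2 bases between them. RTP4 lies on the plus strand at chr3:187368235-187368384, IFIT1 on the plus strand at chr10:89392473-89392622, and IFI44L on the plus strand at chr1:78620298-78620447. IFITM1 lies on the plus strand at chr11:313890-314039, ISG15 on the plus strand at chr1:1013347-1013496, RSAD2 on the plus strand at chr2:6865735-6865884, and IFNB1 on the minus strand at chr9:21077943-21078092.
RTP4: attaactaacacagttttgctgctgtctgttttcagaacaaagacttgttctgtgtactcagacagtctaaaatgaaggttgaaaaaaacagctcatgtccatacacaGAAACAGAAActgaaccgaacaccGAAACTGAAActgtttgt
IFIT1: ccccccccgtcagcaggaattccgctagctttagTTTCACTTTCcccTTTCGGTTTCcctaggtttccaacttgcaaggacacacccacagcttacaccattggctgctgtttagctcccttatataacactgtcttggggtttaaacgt
IFI44L: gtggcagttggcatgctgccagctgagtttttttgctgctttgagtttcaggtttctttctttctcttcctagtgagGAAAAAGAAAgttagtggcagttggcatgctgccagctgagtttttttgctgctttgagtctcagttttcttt
IFITM1: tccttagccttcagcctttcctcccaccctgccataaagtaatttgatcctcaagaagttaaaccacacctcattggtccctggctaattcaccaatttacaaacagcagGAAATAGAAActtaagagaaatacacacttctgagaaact
ISG15: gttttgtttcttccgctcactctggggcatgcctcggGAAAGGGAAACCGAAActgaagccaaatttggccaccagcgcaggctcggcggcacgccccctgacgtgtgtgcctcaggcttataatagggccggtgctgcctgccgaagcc
RSAD2: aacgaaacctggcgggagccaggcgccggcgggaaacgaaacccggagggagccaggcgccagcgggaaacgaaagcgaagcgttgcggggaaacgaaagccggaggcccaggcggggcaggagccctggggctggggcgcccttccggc
IFNB1: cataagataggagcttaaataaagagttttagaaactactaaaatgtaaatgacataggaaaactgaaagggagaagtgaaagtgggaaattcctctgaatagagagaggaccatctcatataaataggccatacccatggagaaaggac

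The first 5 of these promoters held the motif in the bases shown, with 2 matches each in RTP4, IFIT1 and ISG15, those of ISG15 overlapping. RSAD2 and IFNB1 held none by these letters. Over the 250 bases before the start, 839 of 27305 RefSeq promoters held a match (3.07%), as did 180 of the 7396 measured genes that had a promoter sequence (2.43%). Among genes higher by over 1 log2 unit in KHOS after nonspecific siRNA, 30 of 102 held a match (29.4%), against 2 of 49 among those lower by over 1 (4.08%) and 5 of 63 among those higher by over 1 in U-2OS (7.94%). Of 908 matches over all promoters, 4 overlapped a match to one of the other motifs searched, the AP-1 site TGANTCA, the E2F site TTTNGCGC and the ATF4 element TGATGNAA. AP-1 matches stood in 9 of the 102 promoters of the higher genes (8.82%). They stood in 278 of the 7396 promoters of measured genes (3.76%) and in 1801 of all promoters (6.60%).

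Over the 8878 genes, the difference between the 2 KHOS arrays had a median of 0.01 and an SD of 0.37 on the log2 scale, and the middle 95% of genes lay between -0.68 and 0.77. In KHOS 4615 of all genes had positive and 4259 negative differences, and in U-2OS 4358 and 4518, beside which the counts by direction in the lists below stand. After nonspecific siRNA 120 genes were higher by over 1 log2 unit, that is over 2-fold (1.35%), and 61 were lower by over 1 (0.687%). Of these, 23 of the higher and 16 of the lower genes were under the limit on both KHOS arrays compared. At the edge, 15 genes lay between 1 and 1.1 and 32 between 0.9 and 1. The tail of higher genes was longer, with 23 genes above 2 and 4 below -2. The 120 genes included 38 of the interferon-stimulated list, and 49 stood on that list, the list of double-stranded RNA sensors and interferon signalling, or the list of MHC class I presentation, which together held 93 measured genes. In U-2OS the same contrast gave 95 genes higher (1.07%) and 132 lower (1.49%) by over 1. In both lines 7 genes were higher by over 1. They were 5.83% of those in KHOS, against 1.07% of all genes in U-2OS, and 7.37% of those in U-2OS, against 1.35% of all genes in KHOS. The median U-2OS difference of the 120 genes was 0.09. Of the 97 of them above the limit on a KHOS array compared, 45 exceeded it on the untransfected U-2OS array. Many were thus dim in U-2OS, which limits this comparison of the lines.

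**Figure D1:**
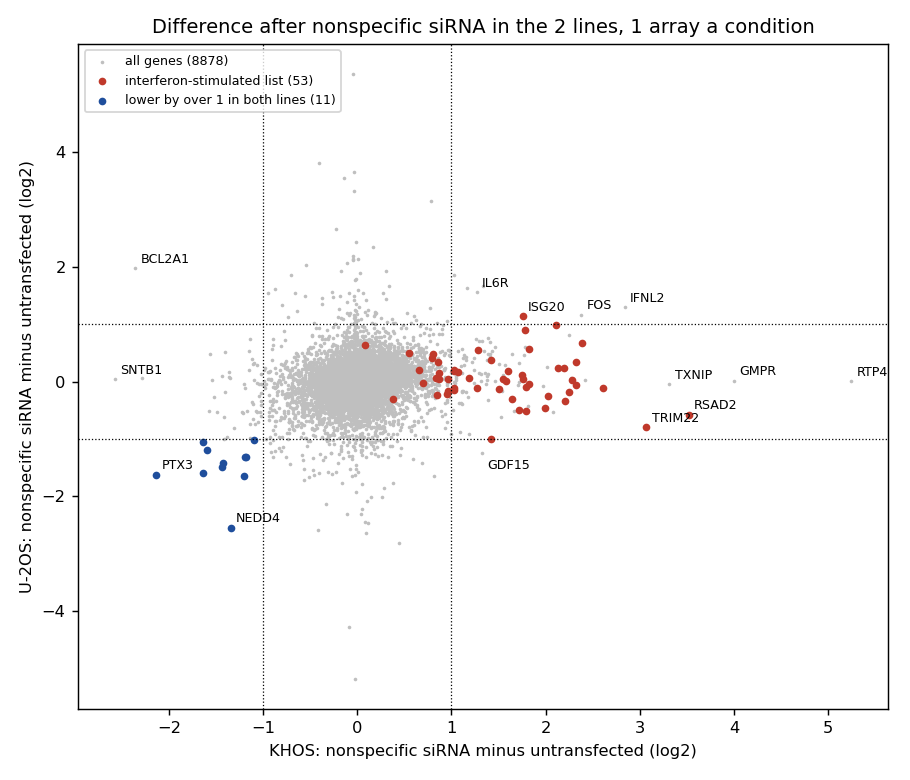
Log2 difference between nonspecific siRNA and untransfected cells in KHOS (horizontal) and U-2OS (vertical) for 8878 genes, 1 array a condition. Dotted lines mark 1 log2 unit. The 53 interferon-stimulated genes (red) lie to the right of 0 in KHOS and about 0 in U-2OS, where 28 were under the signal limit on both arrays compared. The 11 blue genes were lower by over 1 in both lines.

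Interferon genes themselves differed. IFNB1, which encodes the type I interferon beta, had a log2 signal of 6.50 in untransfected KHOS, 8.25 after nonspecific siRNA and 8.56 after CDK11 siRNA, while the 3 U-2OS arrays held 2.34, 2.39 and 2.37. Its signal was thus 3.36-fold higher on the nonspecific siRNA array of KHOS, and all 3 KHOS arrays lay above all 3 U-2OS arrays. IFNL2, a type III interferon, was at 4.14, 6.98 and 7.26 on the KHOS arrays in the same sequence and at 2.65, 3.94 and 3.58 on those of U-2OS. Both transfected arrays of KHOS stood above the untransfected one, and nonspecific siRNA made a difference of 2.84, against 1.30 in U-2OS. The IFNL2 signal was under the limit on untransfected KHOS and on all 3 U-2OS arrays, so these sizes depend on the background correction. Adding 50 to every signal shrank the KHOS value to 1.38 and left only 0.22 for U-2OS. IFNL2 has a near-identical neighbour, IFNL3, so its probe set cannot be assigned with certainty to 1 gene. IFNL1, another type III interferon, stayed under the signal limit on every array and was read at 3.66 in untransfected KHOS and 5.82 with nonspecific siRNA. The 13 genes of the alpha, kappa and omega interferons with a probe set lay between 2.09 and 2.63 on all 6 arrays, which is the background level of these arrays.

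Of the 34 genes listed as double-stranded RNA sensors and interferon signalling, 23 were measured. In KHOS 6 of the 23 were higher by over 1 after nonspecific siRNA and none was lower by over 1, with a median of 0.29 against 0.01 over all genes. The sensor MDA5, encoded by IFIH1, was at 8.85 untransfected, 10.82 after nonspecific siRNA and 10.40 after CDK11 siRNA, a difference of 1.97. The sensor RIG-I, encoded by RIGI, was at 9.08, 10.80 and 10.66, a difference of 1.71. Both transfected arrays were above the untransfected one for either sensor. In U-2OS the differences of these sensors for nonspecific siRNA were -0.07 and 0.32. The transcription factors IRF1, IRF9 and IRF7 were higher by 1.46, 1.15 and 1.13 in KHOS and by 0.61, 0.43 and 0.47 in U-2OS. A dimmer probe set of IRF1 gave a larger KHOS difference, and the mean of both was 2.23. ADAR, which edits double-stranded RNA, differed by 0.76, and EIF2AK2, the kinase PKR that halts translation on such RNA, by 0.43. The adaptor MAVS differed by 0.00, the kinase TBK1 by 0.20, the interferon receptor chains IFNAR1 and IFNAR2 by 0.06 and -0.11, and the receptor kinases JAK1 and TYK2 by 0.06 and -0.05. The members that stood apart in KHOS were therefore an interferon, sensors and IRF factors, whereas the receptors, their kinases and MAVS were near the median of all genes.

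Among interferon-stimulated genes, 53 of 56 listed were measured, and all 53 were higher in KHOS after nonspecific siRNA. The differences ran from 0.08 for CD274 to 3.52 for RSAD2, with a median of 1.55, and 38 of the 53 were higher by over 1. In U-2OS 28 of the 53 were under the limit on both arrays compared and could show little difference there. Of the 25 above it, a subset taken after seeing the data, 16 were higher and 9 lower in U-2OS, with a median of 0.06 and ISG20 alone beyond 1. In KHOS the same 25 genes had a median of 0.96, with 12 higher by over 1. RSAD2, which encodes the antiviral radical enzyme viperin, was at 6.71 untransfected, 10.23 after nonspecific siRNA and 9.99 after CDK11 siRNA in KHOS, and at 4.0, 3.42 and 3.84 in U-2OS. Its signal was 11.5-fold higher with nonspecific siRNA in KHOS, and the U-2OS arrays were all under the limit. TRIM22, an antiviral ubiquitin ligase, was at 7.22, 10.29 and 10.43 on the 3 KHOS arrays and at 5.32, 4.53 and 4.64 on those of U-2OS. The dynamin-like GTPase MX1, which blocks entry and replication of viruses, was at 8.73, 11.05 and 11.51 in KHOS and stayed between 2.31 and 2.43 in U-2OS. For both genes the untransfected array was the lowest of the 3 in KHOS. Here and in other paragraphs, naming genes for a higher value than on the untransfected array favours this order. Both transfected arrays are compared with that same array.

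Other families of antiviral effectors were higher as well. MX2 was higher by 2.60 in KHOS, and OASL, a relative of the enzymes that activate RNase L, by 2.39. OAS1 and OAS3, which make the 2-5A activator of RNase L, were higher by 1.76 and 1.72, and OAS2 by 0.96. IFIT1 and IFIT3, which bind foreign RNA, were at 12.07 and 11.60 in untransfected KHOS and at 13.90 and 13.70 with nonspecific siRNA. ISG15, the ubiquitin-like modifier, was at 13.81 untransfected and higher by 1.19 with nonspecific siRNA. HERC5, the ligase that attaches ISG15, was at 8.87 and 11.08 on these arrays. USP18, the protease that removes ISG15 and damps receptor signalling, was at 7.26 and 9.54. The attaching enzyme and the removing enzyme were therefore both higher with nonspecific siRNA, by 2.21 and 2.28. IFITM1, which hinders viral fusion, was higher by 2.13, BST2, which tethers budding virions, by 2.02, IFI27 by 2.24 and IFI44L by 2.32. Of the 53, the checkpoint ligand CD274 at 0.08, NMI at 0.37 and PML at 0.54 had the smallest differences.

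The interferon-stimulated genes were already well above the limit in untransfected KHOS. Of the 53, 47 exceeded a signal of 100 on that array and 25 did so on the untransfected U-2OS array. Their median level was 9.31 in untransfected KHOS, 10.98 after nonspecific siRNA and 10.73 after CDK11 siRNA, against 6.17, 6.06 and 6.37 in U-2OS. Over the 38 genes higher by over 1, the KHOS medians were 8.65, 10.45 and 10.42. The 2 transfected KHOS arrays were close to each other, and the comparisons of either with untransfected KHOS share that untransfected array. A larger number of responding cells and more RNA per cell cannot be told apart in these pooled samples.

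**Figure D2:**
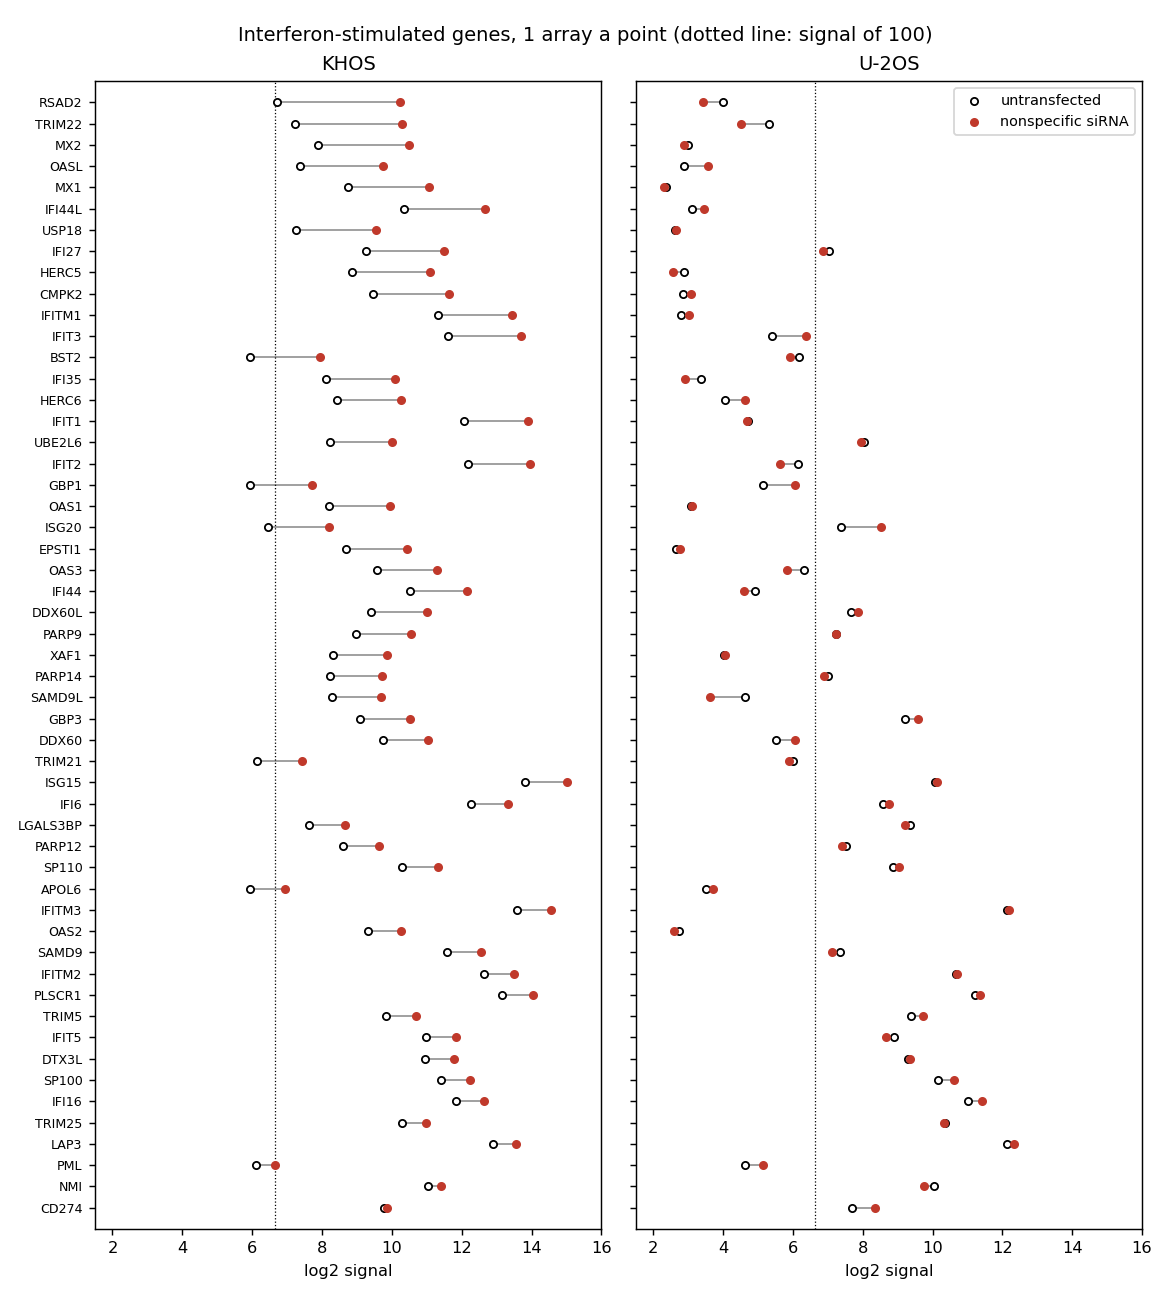
Log2 signal of 53 interferon-stimulated genes on the untransfected array (open) and the nonspecific siRNA array (red) of KHOS (left) and U-2OS (right), ordered by the KHOS difference. All 53 red points lie to the right of the open points in KHOS, by 0.08 to 3.52, and 28 of the 53 genes are under the limit (dotted line) on both U-2OS arrays.

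Genes of MHC class I presentation, which load peptides from the cytosol for display to T cells, were also higher. In KHOS all 17 measured members had positive differences, with a median of 0.56, and 5 were higher by over 1. PSMB9, a catalytic subunit of the immunoproteasome, was at 6.24 untransfected, 8.06 after nonspecific siRNA and 7.51 after CDK11 siRNA in KHOS, and at 7.06, 6.63 and 6.41 in U-2OS. TAP1, a chain of the peptide transporter, was at 8.64, 10.35 and 10.55 in KHOS and at 8.55, 8.49 and 8.77 in U-2OS. The 2 transfected KHOS arrays lay above the untransfected one for both genes, and in U-2OS nonspecific siRNA made differences of -0.43 and -0.07. The heavy chains HLA-B and HLA-C were higher by 1.39 and 1.32 in KHOS, and PSMB8, another immunoproteasome subunit, by 1.13. HLA-B and HLA-C are similar in sequence and their probe sets may share RNA. The light chain B2M was at 14.28 and 14.81, a difference of 0.52, or of 0.35 over the mean of its probe sets. In U-2OS the list's median was 0.09, with no member beyond 1.

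The largest log2 difference in KHOS, from a level near background, was that of RTP4, an interferon-induced chaperone of receptors, which was on none of the lists. RTP4 was at 2.88 in untransfected KHOS, 8.12 after nonspecific siRNA and 7.96 after CDK11 siRNA, and at 2.22, 2.23 and 2.23 in U-2OS. GMPR, which converts guanine to inosine nucleotides, was at 3.02, 7.02 and 7.67 in KHOS and about 2.1 on all U-2OS arrays. TXNIP, an inhibitor of thioredoxin that restrains glucose uptake, was at 3.55, 6.86 and 7.94 in KHOS and stayed between 3.42 and 3.66 in U-2OS. These 3 genes were near background in untransfected KHOS and above the limit after nonspecific siRNA, so the size of their differences depends on the background correction. With 50 added to every signal before the logarithm, RTP4, GMPR and TXNIP differed by 2.52, 1.63 and 1.43 in place of 5.24, 4.0 and 3.31. On that scale RSAD2 at 3.01 and TRIM22 at 2.71 lay above RTP4. ABTB2 was at 4.48, 6.89 and 7.26 in KHOS, with 1.22 in place of 2.41 on that scale. In all, 50 of the 120 higher genes stood on no list. The share of all genes on no list was not computed, so this count is only a description. Of the 50, 44 had a promoter sequence, and 9 of these held the ISRE motif (20.5%), against 2.43% of measured genes. Of these 50, SHFL, an inhibitor of viral translation, was at 6.20 and 8.28, and CYP1B1, a xenobiotic-metabolising cytochrome, at 12.27 and 13.81, both named after their values were seen.

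Inflammatory and immediate early genes formed a smaller group. Of 21 measured inflammatory cytokines and NF-kB targets, 4 were higher and 1 lower by over 1 in KHOS, with a median of 0.48 that was 0.27 with no filter and 0.29 with 50 added to every signal. PTGS2, which encodes the prostaglandin synthase COX-2, was at 8.07 untransfected, 9.58 after nonspecific siRNA and 10.91 after CDK11 siRNA in KHOS, and at 6.36, 6.66 and 7.80 in U-2OS. The neutrophil chemokine CXCL8 was at 6.25, 7.58 and 8.48 in KHOS and at 5.72, 7.40 and 7.68 in U-2OS. In KHOS both genes were lowest untransfected and highest with CDK11 siRNA. CXCL11, an interferon-induced chemokine that draws T cells, was higher by 1.29 in KHOS and at 2.81 to 2.96 in U-2OS, and CXCL2 was higher by 1.36 in KHOS but under the limit on both arrays compared. With 50 added to every signal, PTGS2, CXCL8 and CXCL11 differed by 1.35, 0.94 and 0.75 in KHOS. The list's lower member was PTX3, described below with the lowered genes.

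Of 24 measured AP-1 and immediate early genes, 4 were higher by over 1 in KHOS and 21 had positive differences, with a median of 0.42. FOS, a subunit of AP-1, was at 5.26 untransfected, 7.64 after nonspecific siRNA and 8.76 after CDK11 siRNA in KHOS, and at 5.31, 6.48 and 6.75 in U-2OS. For FOS the KHOS difference was 2.38 and the U-2OS difference 1.16, and with 50 added to every signal they were 1.5 and 0.63. ATF3, a stress-induced repressor, was at 7.45, 9.46 and 9.91 in KHOS and at 9.23, 9.48 and 9.77 in U-2OS. The zinc finger factor EGR1 was higher by 1.24 in KHOS, with its 3 probe sets between 1.23 and 1.26, and the growth regulator MYC by 1.05. Of 21 feedback and output genes of the ERK pathway 15 had positive differences, with a median of 0.14 and none beyond 1, and EPHA4 was at -0.99.

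The integrated stress response, in which phosphorylation of a translation initiation factor raises ATF4 and its targets, had 45 measured genes. In KHOS 41 of them had positive differences, with a median of 0.32, and 5 were higher by over 1, whereas in U-2OS 14 were positive and the median was -0.04. DDIT4, an inhibitor of mTORC1, was at 10.28 untransfected, 11.80 after nonspecific siRNA and 12.14 after CDK11 siRNA in KHOS, and at 12.33, 11.72 and 13.12 in U-2OS. DDIT3, the pro-apoptotic factor CHOP, was at 8.85, 10.23 and 10.42 in KHOS and at 10.24, 11.00 and 11.09 in U-2OS. On untransfected arrays both genes stood lower in KHOS than in U-2OS. TRIB3, a pseudokinase that feeds back on this pathway, was higher by 1.37 in KHOS and differed by -0.03 in U-2OS. CTH, an enzyme of cysteine synthesis, was higher by 1.37, and the cystine transporter SLC7A11 differed by 0.82. The fifth gene beyond 1 was GDF15.

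Neighbouring stress programmes differed less. Of 24 measured genes of the unfolded protein response, only the chaperone DNAJB9 was beyond 1, with a difference of 1.29 and a list median of 0.28. Heat shock genes had a median of 0.08, with none of 16 beyond 1, and metallothioneins 0.16, with none of 9 beyond 1. Oxidative stress genes had a median of 0.16, and HMOX1, which degrades haem, was the 1 of 18 beyond 1, at 4.46 and 6.10 and so under the limit on both arrays. Of 21 p53 targets 2 were higher by over 1, the autophagy gene TP53INP1 at 5.70 and 6.89 and GDF15. With 50 added to every signal TP53INP1 differed by 0.73. Lysosome and autophagy genes had a median of 0.24, and the selective autophagy receptor SQSTM1 differed by 0.93. LAMP2, of the same list, went the other way, at -0.94 with its brightest probe set and between -0.64 and 0.08 with the others.

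Single members of the metabolic, matrix and growth factor lists also stood out. SLC2A3, a neuronal-type glucose transporter, was at 7.73 untransfected, 9.51 after nonspecific siRNA and 9.42 after CDK11 siRNA in KHOS, and at 10.75, 11.36 and 11.40 in U-2OS. MMP13, a collagenase of bone and cartilage, was at 5.47, 7.24 and 7.89 in KHOS and stayed between 1.97 and 2.83 in U-2OS. IGFBP3, which binds insulin-like growth factors, was at 7.07, 8.23 and 9.05 in KHOS. In each case the untransfected KHOS array was the lowest of the 3. MOV10, an RNA helicase tied to small RNA silencing, was higher by 1.11, the only 1 of 19 genes of that machinery beyond 1. With 50 added to every signal, SLC2A3, MMP13, IGFBP3 and MOV10 differed by 1.57, 1.09, 0.92 and 0.77 in KHOS. Of the lists around them, hypoxia and glycolysis had a median of 0.16, collagens, matrix and proteases 0.16, and the IGF axis 0.12.

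**Figure D3:**
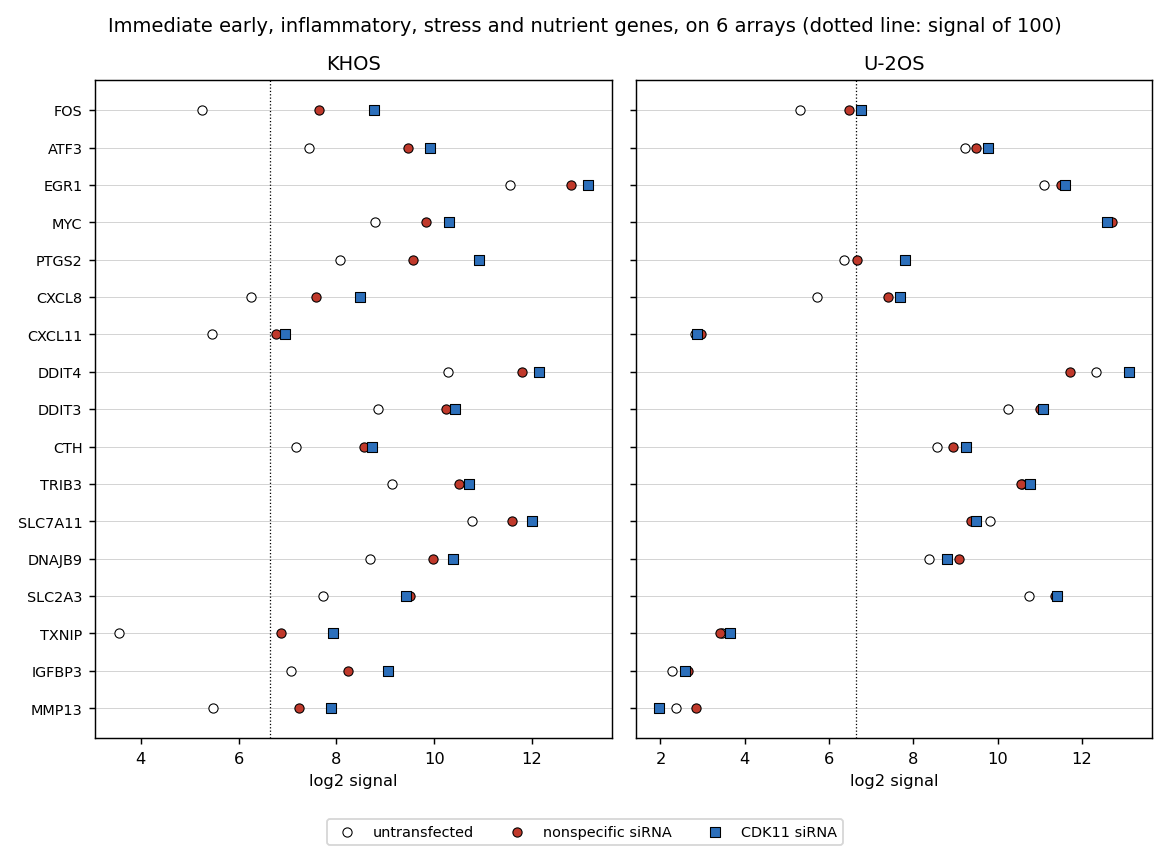
Log2 signal of 17 immediate early, inflammatory, stress and nutrient genes on the 3 arrays of KHOS (left) and of U-2OS (right), with the untransfected array open, nonspecific siRNA red and CDK11 siRNA blue. In KHOS the open point is the lowest of the 3 for all 17 genes, for example 5.26 against 7.64 and 8.76 for FOS. The genes were named with their differences from the untransfected array known, which favours this order.

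Growth genes differed little. Of 62 mitosis genes, 51 were lower in KHOS after nonspecific siRNA, with a median of -0.20 and none beyond 1, and in U-2OS 58 were lower, with a median of -0.33. Of all 8878 genes, 4259 were lower in KHOS and 4518 in U-2OS. The spindle checkpoint gene MAD2L1 was at 12.61 untransfected, 11.92 after nonspecific siRNA and 11.86 after CDK11 siRNA in KHOS. The mitotic cyclin CCNB1 was at 12.87, 12.35 and 12.42. Both transfected arrays were lower than the untransfected one, by under 0.8 log2 units for the brightest probe set of either gene. A dimmer CCNB1 probe set was at 11.78, 10.92 and 10.71. DNA replication genes had a median of -0.09, with CDC7, a kinase that fires origins, at 9.62 and 9.12, and regulators of the G1/S transition 0.09, with the repressors E2F7 at 0.65 and E2F8 at -0.66. Cholesterol and fatty acid synthesis had a median of -0.14, with 15 of 20 genes lower and none beyond 1, and integrins and adhesion a median of -0.18. Ribosomal proteins (median 0.04), housekeeping genes (0.08), pre-mRNA splicing (-0.01), membrane uptake (0.06) and apoptosis regulators (-0.02) were centred near 0, and BCL2A1 was the only gene of these 5 lists beyond 1.

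**Figure D4:**
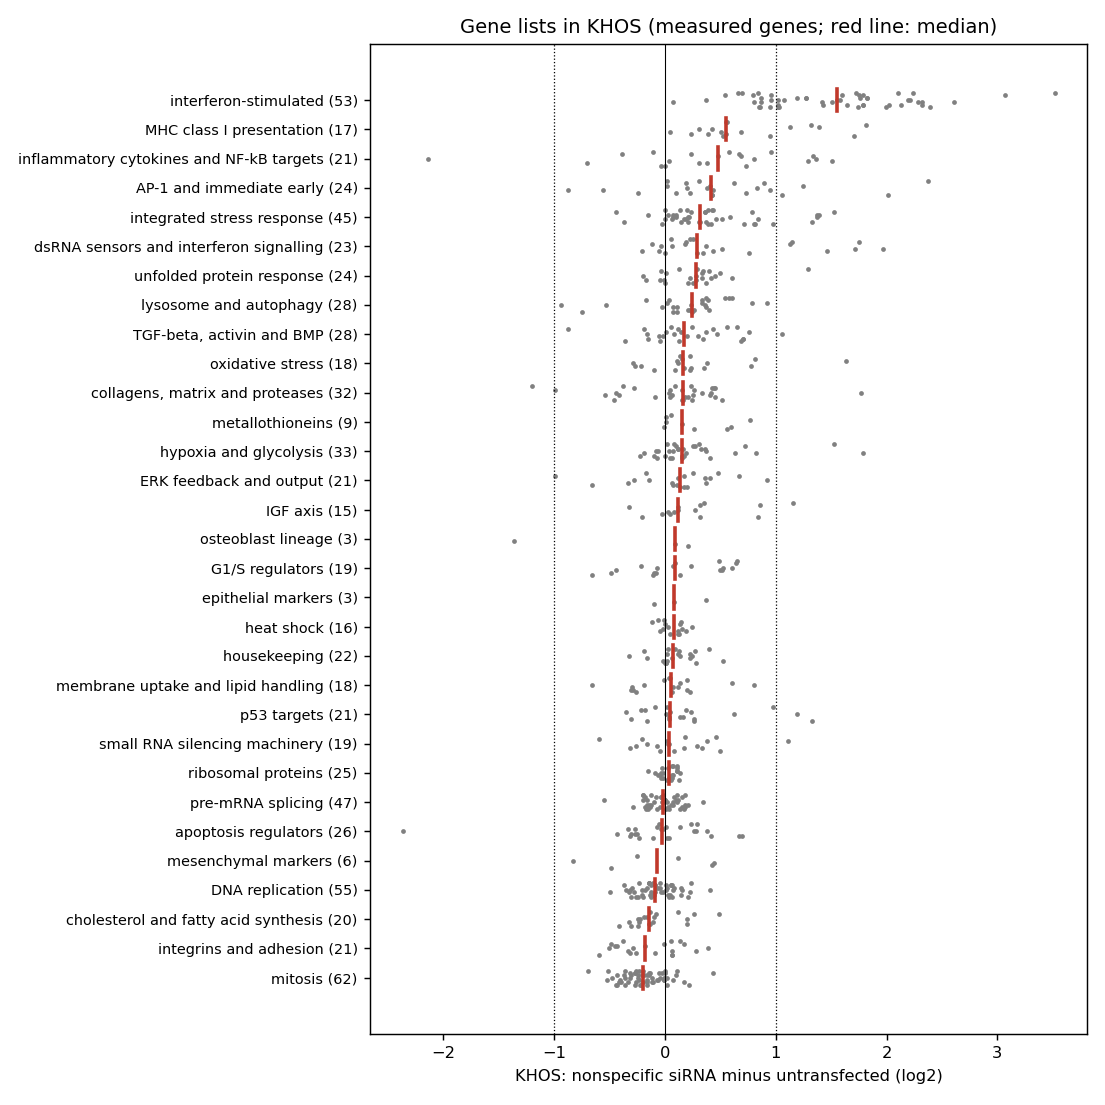
Log2 difference between nonspecific siRNA and untransfected KHOS for each measured gene (points) of the lists with 3 or more measured genes, with the list median in red and the number of genes in brackets. The interferon-stimulated list has a median of 1.55, the other lists between -0.20 and 0.56.

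Of the 61 lowered genes 4 stood on a list. The share of all genes on any list was not computed, so this count is only a description. The largest log2 difference was that of SNTB1, a syntrophin that links the dystrophin complex to the membrane. SNTB1 was at 6.86 in untransfected KHOS, 4.29 after nonspecific siRNA and 6.71 after CDK11 siRNA, and at 3.22 to 3.26 in U-2OS. ST6GAL2, a sialyltransferase, was at 7.08, 4.79 and 6.58 in KHOS and near 3 in U-2OS. For both genes the nonspecific siRNA array alone was low, and under the limit. With 50 added to every signal SNTB1 and ST6GAL2 differed by -1.26 and -1.25, and PTX3 at -1.98 and SMIM15 at -1.57 were the lowest. NOX4, an NADPH oxidase, was at 7.72, 6.07 and 6.80 in KHOS and at 4.18, 2.59 and 2.52 in U-2OS. SGMS2, a sphingomyelin synthase, was lower by 1.58 in KHOS with the brightest probe set, and its difference was -0.99 over the mean of its probe sets. KIF3A, a kinesin of intraflagellar transport, was at 8.49, 6.98 and 8.19, EPHX4, an epoxide hydrolase relative, at 9.49, 8.05 and 8.75, and ACSL4, which activates polyunsaturated fatty acids, at 11.01, 9.60 and 10.18. TNFRSF11B, the decoy receptor osteoprotegerin that restrains osteoclasts, was at 9.57, 8.21 and 9.91, and its difference was -1.36 or, over the mean of its probe sets, -0.88. CLMN differed by -1.57, IGIP by -1.54 and CPED1 by -1.42, all from levels near 7, and their differences were -0.93, -0.92 and -0.93 with 50 added to every signal.

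Of these, several held their untransfected level on the CDK11 siRNA array. Over the 45 lower genes that were above the limit in KHOS, the median level was 8.88 untransfected, 7.52 after nonspecific siRNA and 8.09 after CDK11 siRNA. The CDK11 siRNA median thus lay between. Choosing genes for a low value on the nonspecific siRNA array favours such an order, so it is a description. CSGALNACT2, an enzyme of chondroitin sulphate synthesis, was at 10.93, 9.51 and 11.57 in KHOS and at 10.85, 9.85 and 11.19 in U-2OS. In either line the nonspecific siRNA array was the lowest of the 3. The difference between the 2 siRNAs was not tested within a line.

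Between the lines, 11 genes were lower by over 1 in both, and these comparisons share no array. The 11 were 18% of the 61 in KHOS, against 1.49% of all genes lower by over 1 in U-2OS. They were 8.33% of the 132 in U-2OS, against 0.687% of all genes lower by over 1 in KHOS. With 50 added to every signal 5 of the 11 were still lower by over 1 in both lines, PTX3, SMIM15, ZNF367, NEDD4 and DESI2. The genes were PTX3, NOX4, FAP, SMIM15, ZNF367, DSC2, NEDD4, C5orf46, LOX, DESI2 and KAT2B. PTX3, a secreted pentraxin of innate immunity, was at 10.43 untransfected, 8.29 after nonspecific siRNA and 9.79 after CDK11 siRNA in KHOS, and at 9.91, 8.28 and 9.83 in U-2OS. SMIM15 was at 12.81, 11.21 and 12.76 in KHOS and at 13.16, 11.96 and 13.25 in U-2OS. The nonspecific siRNA array was lowest in either line for both genes, and the CDK11 siRNA array lay within 0.7 log2 units of the untransfected one. ZNF367, a zinc finger gene, was at 8.95, 7.50 and 9.21 in KHOS and at 9.23, 7.73 and 9.51 in U-2OS. NEDD4, a ubiquitin ligase, was at 10.15, 8.80 and 10.66 in KHOS and at 6.82, 4.27 and 6.52 in U-2OS. LOX, which crosslinks collagen, was at 7.31, 6.12 and 6.91 in KHOS and at 6.41, 5.09 and 6.64 in U-2OS. These genes too were lowest on the nonspecific siRNA array in each line, an order favoured by choosing them for low values on it. Over all 11 genes the medians were 8.88, 7.50 and 7.95 in KHOS, against 6.94, 5.59 and 7.11 in U-2OS.

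**Figure D5:**
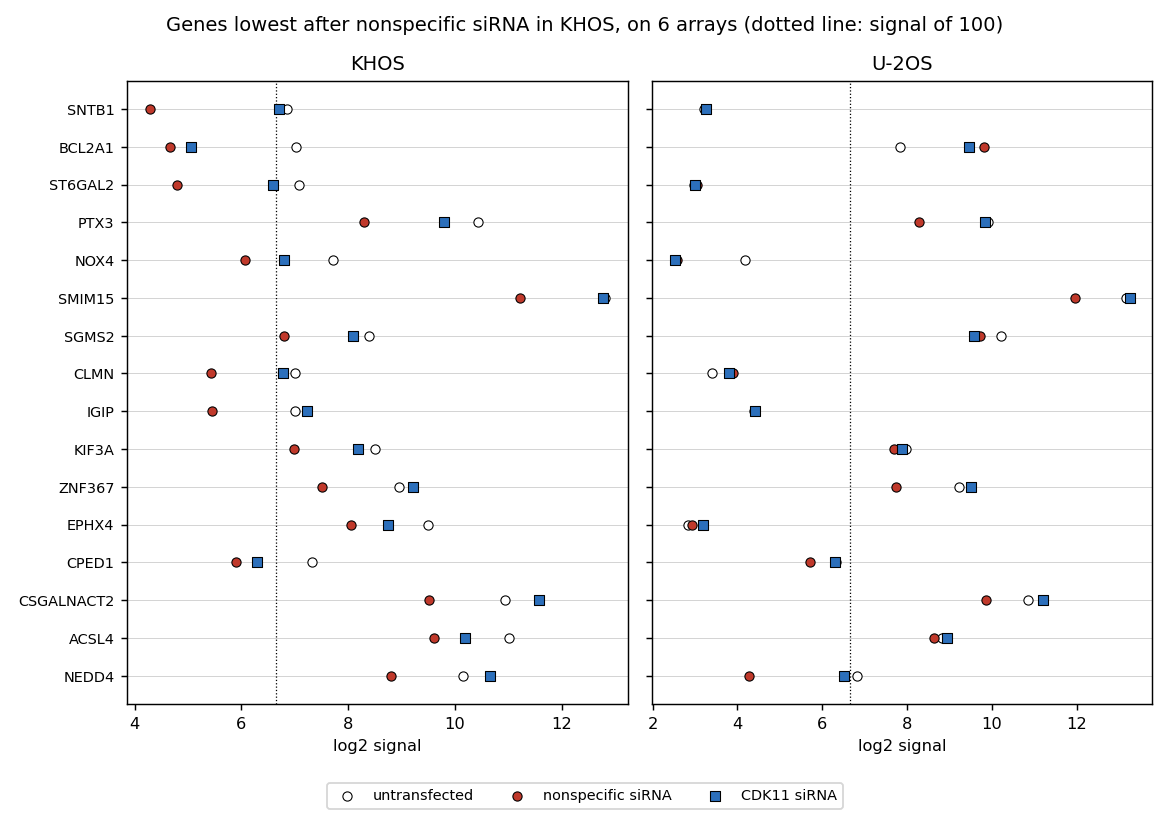
Log2 signal of 16 genes on the 3 arrays of KHOS (left) and of U-2OS (right), with the untransfected array open, nonspecific siRNA red and CDK11 siRNA blue. The genes are NEDD4 and the 15 lowest in KHOS after nonspecific siRNA among those above the limit on a KHOS array compared. For all 16 genes the red point is the lowest in KHOS, which their choice by this array favours. For PTX3, SMIM15, ZNF367, CSGALNACT2 and NEDD4 it is also the lowest in U-2OS by 0.9 or more.

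The 7 genes higher by over 1 in both lines were DLL1, LYST, IL6R, CXCL8, ISG20, FOS and IFNL2. With 50 added to every signal none of the 7 was higher by over 1 in both lines, with CXCL8 at 0.94 in KHOS and 1.09 in U-2OS and ISG20 at 1.33 and 0.94. The interleukin-6 receptor IL6R was at 6.39 untransfected, 7.65 after nonspecific siRNA and 8.38 after CDK11 siRNA in KHOS, and at 8.95, 10.51 and 10.85 in U-2OS. The exonuclease ISG20, which degrades viral RNA, was at 6.44, 8.19 and 8.41 in KHOS and at 7.38, 8.52 and 8.49 in U-2OS. The Notch ligand DLL1 was at 6.25, 7.29 and 7.42 in KHOS and at 2.88, 4.75 and 4.48 in U-2OS. For these 3 genes both transfected arrays were above the untransfected one in each line. In the opposite direction from one line to the other went BCL2A1 and GDF15.

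The one test available took the 2 lines as replicates, in limma with all 6 arrays, cell line as a block and 2 residual degrees of freedom. At a Benjamini-Hochberg adjusted p of 0.05 no gene was called higher or lower (0%) of 8878, while 751 had an unadjusted p under 0.05. For RSAD2 the mean difference over both lines was 1.47 with an SE of 1.02 (adjusted p = 0.695 in limma), and for RTP4 it was 2.63 with an SE of 1.37 (adjusted p = 0.644 in limma). The smallest adjusted p, 0.345 in limma, was that of ZNF367, with a difference of -1.47 and an SE of 0.11. With a variance prior that follows the mean level, 5 genes were called, IL6R as higher and DESI2, PTX3, SMIM15 and ZNF367 as lower, with adjusted p of 0.0165 to 0.0399 in limma. The difference between the lines in their interferon-stimulated genes has no test with 1 array for each condition.

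Of genes with 2 or more probe sets kept, all probe sets lay on the same side of 0 for 30 of 31 of the higher genes, ZNF652 being the exception, and 19 of 19 of the lower genes. The genes were chosen by their brightest probe set on the same 2 arrays, which favours this count, so it is a description. Probe sets shared by CDK11A and CDK11B were at 9.69 and 7.16 untransfected, 9.92 and 7.48 after nonspecific siRNA and 7.64 and 5.16 with CDK11 siRNA in KHOS for the 2 kept, so the target was lowest on the array labelled CDK11 siRNA. Mesenchymal markers were above the limit in KHOS for 5 of 6, among them VIM at 15.36 and 15.48. Of 10 osteoblast lineage markers with a probe set 3 were above the limit, RUNX2, COL1A1 and TNFRSF11B, while SP7, ALPL, IBSP, DLX5 and COL1A2 lay under 3 on both arrays. Epithelial markers were above it for 3 of 10, EPCAM, KRT8 and KRT18. All 6 blood cell markers, PTPRC and CD14 among them, and all 4 endothelial markers were at most 3.22 on the 2 arrays. The summed signal of the blood markers was 5.29 untransfected and 5.25 with nonspecific siRNA on the log2 scale. Between 24.8% and 25.9% of probe sets exceeded the limit on each of the 6 arrays. Precision is limited by the number of arrays.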

How the data were processed

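Total RNA of KHOS and U-2OS cells was hybridised to Affymetrix U133 Plus 2.0 arrays, 1 for each line and condition. The authors deposited log2 values of 54675 probe sets on 6 arrays, made with gcrma, which adjusts for background, normalises by quantiles and summarises probe sets. Quantile normalisation makes differences relative to the other genes, and the background step sets how large differences of dim genes appear. No value column was left unused (0), and the authors' present and absent calls were not used here.

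Groups came from the labels. Probe sets with the highest of 6 signals above 100 and 1 gene symbol were kept. Symbols came from the platform annotation, with 41043 of 41097 probe sets of 1 symbol matched by gene ID to RefSeq (GRCh38.p14). Probe sets with several symbols (1801) or none (11777) named no gene. The probe set of the highest mean stood for a gene. Differences beyond 1 log2 unit were counted. limma 3.58.1 in R 4.3.3 (lmFit, eBayes, two-sided) was tested on simulated data before use. Promoters were searched over 250 bases. The 33 gene lists, the members and the tests were chosen with earlier results of these data known. Genes named were the 15 highest and 15 lowest above the limit in KHOS, up to 4 beyond 1 log2 unit from each list or else the 2 with the largest difference, up to 5 in each direction shared by both lines, those in opposite directions, and CDK11. Other members of the lists were named to complete a family, after their values were seen. Alternatives covered the filter, the probe set of a gene, normalisation, values near background, the threshold, and the prior, block, arrays and filter in limma. Other steps ran in Python 3.11.15 with numpy 2.4.6, pandas 2.3.3, statsmodels 0.14.6, scipy 1.17.1 and matplotlib 3.10.9.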

Additional observations from a re-analysis of the deposited data

Results flagged for a closer look

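In 2 genes the difference between nonspecific siRNA and untransfected cells was beyond 1 log2 unit in opposite directions in the 2 lines. BCL2A1, an anti-apoptotic member of the BCL2 family, was lower by 2.36 in KHOS (difference -2.36) and higher by 1.98 in U-2OS. Its log2 signal was 7.03 in untransfected KHOS, 4.66 after nonspecific siRNA and 5.05 after CDK11 siRNA, against 7.84, 9.82 and 9.46 in U-2OS. Both transfected arrays were thus below the untransfected one in KHOS and above it in U-2OS. With 50 added to every signal the KHOS difference of BCL2A1 was -1.26. GDF15, a stress-induced cytokine, differed by 1.32 in KHOS and by -1.24 in U-2OS, with levels of 5.22, 6.54 and 7.13 in KHOS, against 8.39, 7.15 and 7.66 in U-2OS. It was under the signal limit on both KHOS arrays compared. With 1 array for each condition whether the lines differ was not tested for either gene.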

How the results depend on the processing

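The count of genes higher by over 1 log2 unit in KHOS was 120, and it moved to 185 of 19775 genes with no filter, to 73 with log2(signal + 50) and to 54 beyond 1.5 log2 units. The count of lower genes was 61, and it moved to 118 with no filter, to 38 with a signal limit of 200, to 23 with log2(signal + 50), to 40 beyond 3 SD and to 11 beyond 1.5 log2 units. In limma 0 genes were called, and 5 with the variance prior that follows the mean level. The other limma alternatives (4 arrays, no block, no filter, mean of probe sets) called 0, with 648, 26, 1303 and 736 genes at an unadjusted p under 0.05. The count of interferon-stimulated genes higher by over 1 lay between 33 and 40, it was 28 beyond 1.5 log2 units, and the list's median between 1.34 and 1.60. Over 31 list medians and 217 values under alternatives, 9 moved, that is by 0.1 or more and over 1.5 times, or across 0. By 0.1 or more and over 1.5 times, loess correction moved none of the 93 named genes, log2(signal + 50) moved 15 and the mean of probe sets 12, and none reversed. The arrays were paired in limma by cell line, as a block, and the labels give no replicate numbers. Leaving out an array leaves no comparison within KHOS. The 7 genes higher in both lines became 0 with log2(signal + 50) and the 11 lower genes 5, a check chosen after seeing the data. Signals near background limit the differences of dim genes.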
